A study of Mus musculus with 4 samples.

Results

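The genes described here are 10 members of the fibroblast growth factor (FGF) pathway, namely the ligands Fgf3, Fgf5, Fgf8, Fgf10 and Fgf15, the receptors Fgfr1 and Fgfr2, and the feedback inhibitors Spry1, Spry2 and Spry4. They were chosen by name, all 10 were measured, and they are 10 of the 18193 genes on the arrays with a probe set of 1 gene symbol. Together they had 21 such probe sets, and each gene was read on the one with the highest mean over the 4 arrays. Gene expression was measured on Affymetrix arrays in cells grown from TT2, a mouse embryonic stem cell line, after a Venus fluorescent reporter had been knocked into 1 of the 2 Etv2 alleles. They were differentiated on a layer of OP9 cells, which are stromal cells from mouse bone marrow. The sample labels give day 5, and the design text gives 4 to 5 days. Flk-1 is the protein of Kdr, a VEGF receptor on mesoderm that can give blood and vessels. Cells positive for it were sorted by Venus into Flk-1+/Etv2+ cells (2 arrays, numbered 1 and 2) and Flk-1+/Etv2- cells (2 arrays, numbered 1 and 2), called Etv2-positive and Etv2-negative below. Both populations carried the heterozygous reporter, which is driven from the Etv2 locus itself. The labels do not say that the arrays of a population came from separate cultures, so p-values cover no more than array-to-array spread, possibly technical, and the number of arrays limits the precision.

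FGF ligands are proteins released from cells that bind receptor tyrosine kinases together with heparan sulphate on the cell surface. The receptors signal through the adaptor Frs2 and the Ras-MAPK cascade, which turns on its own inhibitors, among them the Sprouty proteins. In the mouse gastrula Fgf8 and Fgfr1 are known for their part in moving cells out of the primitive streak and in forming mesoderm. Values below are RMA values in log2 units, a scale on which 1 unit is a 2-fold difference in signal, and differences are Etv2-positive minus Etv2-negative with the standard error (SE) of the limma fit and a p-value adjusted over all 18193 genes.

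As a check of the sort, Etv2 measured 12.64 and 12.41 on the Etv2-positive arrays, against 12.03 and 11.87 on the Etv2-negative arrays. Kdr measured 12.64 and 12.81 on the Etv2-positive and 12.51 and 12.68 on the Etv2-negative arrays, which overlapped, and both populations had been selected on its protein. The PDGF receptor gene Pdgfra, which marks paraxial and other mesoderm, read 8.55 and 7.67 on the Etv2-positive arrays, against 10.11 and 9.41 on the Etv2-negative arrays, a difference of -1.65 (SE 0.38, adjusted p = 0.195). Among 12 endothelial markers, 11 lay higher in the Etv2-positive cells at an unadjusted p under 0.05 (median difference 1.10), and among 11 markers of the primitive streak and nascent mesoderm 6 lay lower and 0 higher (median -1.03). In whole-population RNA, fewer cells of a type and less RNA per cell cannot be told apart. No gene of the 18193 passed an adjusted p of 0.05 in limma (0%), while 1287 lay higher and 844 lower at an unadjusted p under 0.05, so no FGF pathway gene is called changed below, and differences are read against the spread between arrays and against the same counts over all genes.

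RefSeq promoter windows (GRCm38.p6, 250 bases before to 50 bases after the gene's start) were used for 6 of the 10 genes, and 4 are printed. They are those of Fgf3, Spry1 and Fgfr2, whose arrays did not overlap between the populations, and that of Fgf5, the second largest difference. Fgf8, Fgf15 and Fgfr1 had no window. The Spry4 window was left out of the search, so the counts of words below do not cover Spry4. Capitals mark matches on either strand to CCGGAA or CAGGAA, words bound by ETS factors such as Etv2, to GGTGTGA, a T-box word, and to CTTTGA, a TCF/LEF word, and no matches overlapped each other.
Fgf3, chr7:144838362-144838661, plus strand: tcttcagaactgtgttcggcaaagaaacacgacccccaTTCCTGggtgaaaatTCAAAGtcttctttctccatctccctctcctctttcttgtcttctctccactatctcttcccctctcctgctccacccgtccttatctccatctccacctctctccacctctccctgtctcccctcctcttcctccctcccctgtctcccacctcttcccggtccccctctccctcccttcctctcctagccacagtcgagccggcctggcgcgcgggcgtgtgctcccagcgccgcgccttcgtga
Spry1, chr3:37639697-37639996, plus strand: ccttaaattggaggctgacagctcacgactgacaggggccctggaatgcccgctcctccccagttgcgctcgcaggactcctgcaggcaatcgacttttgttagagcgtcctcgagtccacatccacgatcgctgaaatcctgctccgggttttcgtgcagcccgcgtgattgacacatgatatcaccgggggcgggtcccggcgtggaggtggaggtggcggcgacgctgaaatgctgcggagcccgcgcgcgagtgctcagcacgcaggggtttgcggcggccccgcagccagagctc
Fgfr2, chr7:130266759-130267058, minus strand: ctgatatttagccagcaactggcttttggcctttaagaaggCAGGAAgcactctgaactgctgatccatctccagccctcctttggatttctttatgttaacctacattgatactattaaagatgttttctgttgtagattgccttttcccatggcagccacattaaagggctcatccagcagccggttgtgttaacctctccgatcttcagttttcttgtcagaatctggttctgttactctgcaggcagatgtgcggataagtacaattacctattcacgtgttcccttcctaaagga
Fgf5, chr5:98253934-98254233, plus strand: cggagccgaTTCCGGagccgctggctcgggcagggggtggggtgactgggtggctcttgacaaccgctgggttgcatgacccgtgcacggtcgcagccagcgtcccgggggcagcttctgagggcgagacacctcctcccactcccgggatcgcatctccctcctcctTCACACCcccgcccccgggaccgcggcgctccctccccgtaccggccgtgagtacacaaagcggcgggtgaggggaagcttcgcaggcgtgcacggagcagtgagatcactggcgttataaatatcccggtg

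An ETS word stood in 4 of the 6 windows, those of Fgf3, Fgf5, Fgfr2 and Spry2, and in 41.4% of all 32851 promoter windows. The Fgf3 window, of a gene higher in the Etv2-positive cells, held it 212 bases before the start on the opposite strand, and the Fgfr2 window, of a gene lower there, held it 209 bases before the start. The T-box word was found in the Fgf5 window alone of the 6 (3.98% of all windows) and the TCF/LEF word in the Fgf3 window alone (16%). The Spry1 and Fgf10 windows held none of these words. A match is a description of the letters and not a bound site.

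Read on their kept probe sets, the receptors had the smallest p-values of the 10 genes. Fgfr1, the receptor through which FGF8 and FGF4 act in the mouse streak, measured 9.42 and 9.44 on the Etv2-positive arrays, against 10.02 and 10.08 on the Etv2-negative arrays. It was 1.54-fold lower, a difference of -0.62 (SE 0.09, adjusted p = 0.097), and the arrays of one population lay within 0.06 of each other. Fgfr2, a receptor for ligands such as FGF10 whose promoter window is shown above, measured 6.75 and 6.90 on the Etv2-positive and 7.55 and 7.79 on the Etv2-negative arrays. It was 1.79-fold lower, a difference of -0.84 (SE 0.13, adjusted p = 0.104), where the larger gap between arrays of one population was 0.24. Both Etv2-positive arrays thus lay below both Etv2-negative arrays for each receptor, by at least 0.58 for Fgfr1 and 0.65 for Fgfr2. Markers of mesoderm also averaged lower on the Etv2-positive arrays, among them Pdgfra, given above. Of 10 presomitic mesoderm markers 5 were lower and 0 higher at an unadjusted p under 0.05, with averages of 6.25 and 6.16 on the Etv2-positive and 6.93 and 6.95 on the Etv2-negative arrays, and the part of these markers in the receptor values was not tested.

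The receptors' other probe sets pointed the same way with smaller sizes. All 3 Fgfr1 probe sets were lower with arrays apart, at -0.62, -0.50 and -0.25. All 3 Fgfr2 probe sets were below 0, at -0.84, -0.29 and -0.12, but the last 2 had means under 6 log2 units, and the arrays of the last one overlapped. The kept probe sets of both receptors have a suffix that marks probes shared with other transcripts, and with only probe sets without a type suffix the differences were -0.25 for Fgfr1 (adjusted p = 0.599) and -0.12 for Fgfr2 (adjusted p = 0.861). The size for Fgfr2 therefore rests on 1 probe set.

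**Figure D1:**
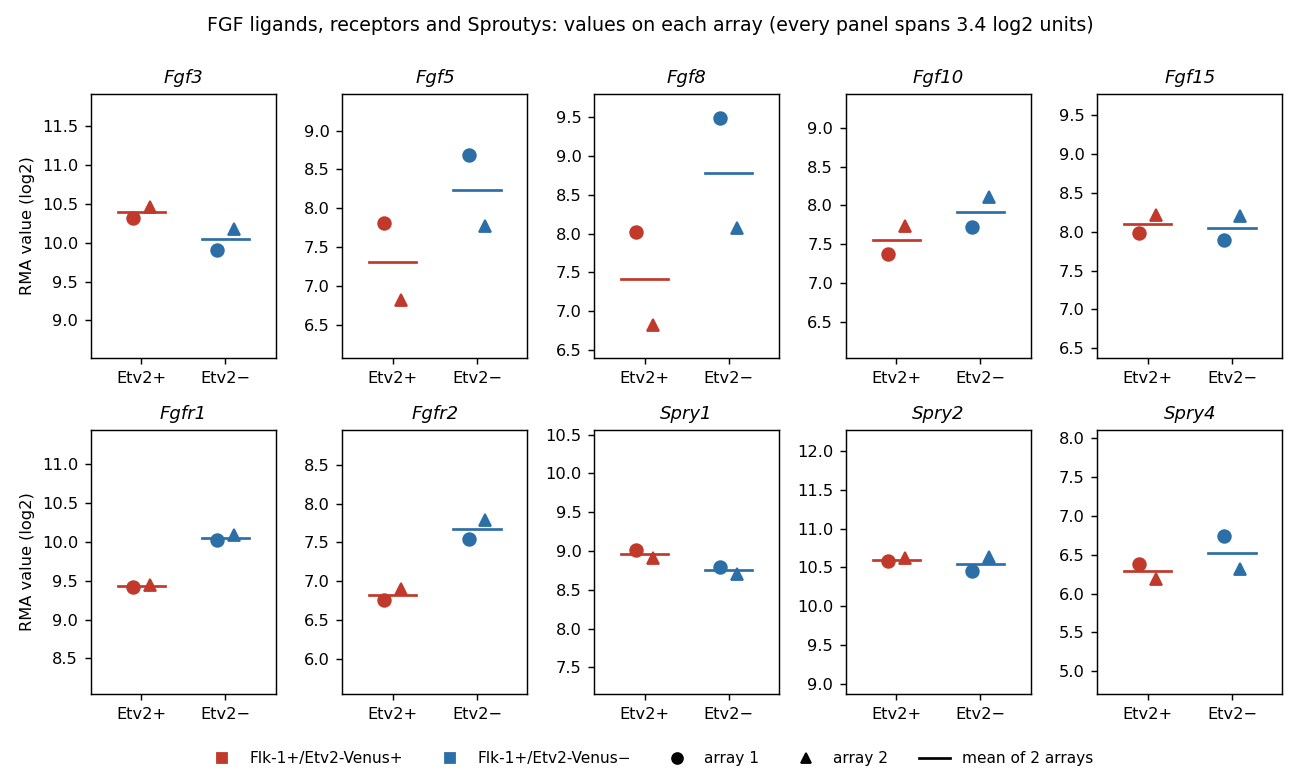
RMA values (log2) of the 10 genes on each array, with Etv2-positive arrays on the left and Etv2-negative arrays on the right of each panel, circles for array 1, triangles for array 2 and lines for the mean. Fgfr1 and Fgfr2 have tight, separated pairs, whereas for Fgf8 and Fgf5 the 2 arrays of one population lie 0.92 to 1.42 apart.

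Among the ligands, Fgf8 had the largest difference. Fgf8, the streak ligand, measured 8.02 and 6.82 on the Etv2-positive arrays, against 9.49 and 8.07 on the Etv2-negative arrays. The mean was 2.56-fold lower, a difference of -1.36 (SE 0.61, adjusted p = 0.502). The populations did not overlap, but the lower Etv2-negative array stood only 0.05 above the higher Etv2-positive array. The gaps within the populations, 1.20 and 1.42, were of about the size of the difference. Array 1 was the higher in both, and between arrays of the same number Fgf8 differed by -1.47 and -1.25. The labels do not say that the numbers mark a pairing. Its single probe set was the only one of the 10 genes' kept probe sets with a difference of at least 2-fold, and without array 1 of the Etv2-negative cells or array 2 of the Etv2-positive cells the difference was -0.65 or -0.76, under 2-fold. Without array 1 of the Etv2-positive cells or array 2 of the Etv2-negative cells it was -1.96 or -2.07.

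Fgf5, a ligand of the epiblast, the tissue from which mesoderm arises, measured 7.81 and 6.82 on the Etv2-positive arrays, against 8.69 and 7.77 on the Etv2-negative arrays. The difference was -0.92 (SE 0.45, adjusted p = 0.545), and the populations overlapped by 0.04. Without array 2 of the Etv2-positive cells or array 1 of the Etv2-negative cells it was -0.42 or -0.46, and without array 1 of the Etv2-positive cells or array 2 of the Etv2-negative cells it was -1.41 or -1.38. Its second probe set, with a mean under 6, read 5.51 and 4.94 on the Etv2-positive and 5.85 and 5.70 on the Etv2-negative arrays, also lower (-0.55). In both populations array 1 was higher than array 2 for Fgf8 and for Fgf5.

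Markers of less differentiated cells and of stroma moved with the same arrays. The 10 markers of undifferentiated and epiblast cells averaged 7.40 and 7.02 on Etv2-positive arrays 1 and 2, against 7.94 and 7.51 on Etv2-negative arrays 1 and 2. Of these 10 markers, 2 were lower at an unadjusted p under 0.05 and 0 higher, Pou5f1 and Tdgf1, and Tdgf1, a Nodal co-receptor, measured 11.28 and 10.43 on the Etv2-positive and 12.45 and 11.71 on the Etv2-negative arrays. The 11 streak markers averaged 8.16 and 7.61 on the Etv2-positive and 9.39 and 8.70 on the Etv2-negative arrays. The 11 measured OP9 stroma and fibroblast markers averaged 6.21 and 5.59 on the Etv2-positive and 6.41 and 5.91 on the Etv2-negative arrays, with 3 lower and 0 higher. All 3 lists were thus lower in the Etv2-positive cells at the same array number. They were also higher on array 1 in each population, like Fgf8 and Fgf5, but this pattern was not particular to them. Of all 18193 genes, 8342 were higher on array 1 in both populations and 3717 on array 2 in both. The 8 neural markers also had the pattern, averaging 5.66 and 5.54 on the Etv2-positive and 5.82 and 5.60 on the Etv2-negative arrays. The part of the 3 lists in the Fgf8 and Fgf5 values was not tested.

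The genes with the profile most like that of Fgf8 over the 4 arrays, by the smallest Euclidean distance between profiles centred on their means, were Gsc, Lmo1 and Epha1, at distances of 0.34, 0.52 and 0.55 among 10369 genes compared. Gsc, a homeobox gene of the anterior streak, measured 7.67 and 6.55 on the Etv2-positive arrays and 8.85 and 7.41 on the Etv2-negative arrays. These profiles share the group difference and the order of the array numbers.

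Fgf3 was the one of these 5 ligands that lay higher in the Etv2-positive cells with arrays apart. It measured 10.32 and 10.46 on the Etv2-positive arrays, against 9.91 and 10.18 on the Etv2-negative arrays, a difference of 0.35 (1.27-fold, SE 0.13, adjusted p = 0.430). The difference was larger than the gap between arrays in either population, 0.14 and 0.28, but without array 1 of the Etv2-negative cells it was 0.21. All 3 of its probe sets were higher with arrays apart, at 0.35, 0.41 and 0.42.

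Fgf10, a ligand of limb, lung and heart precursors that binds Fgfr2, measured 7.37 and 7.74 on the Etv2-positive arrays and 7.73 and 8.11 on the Etv2-negative arrays. Its difference was -0.37 (SE 0.19, adjusted p = 0.574), the arrays overlapped by 0.01, and array 2 was higher in both populations. Without array 1 of the Etv2-positive cells or array 2 of the Etv2-negative cells the difference was -0.18, and without array 1 of the Etv2-negative cells it was -0.56. The 9 measured cardiac progenitor markers, of which 5 were lower and 0 higher at an unadjusted p under 0.05, averaged 7.29 and 7.48 on the Etv2-positive and 7.59 and 7.81 on the Etv2-negative arrays. Without Mef2c, left out after its values were seen, the other 8 averaged 7.40 and 7.41 on the Etv2-positive arrays. On the Etv2-negative arrays they averaged 7.78 and 7.79, so the gap between the averages came from Mef2c. Of these 8 markers, 5 were still higher on array 2 in both populations and 3 on array 1. Over all 18193 genes these counts were 3717 and 8342. The part of the cardiac progenitor markers in the Fgf10 value was not tested. Fgf15, the mouse counterpart of human FGF19, measured 7.99 and 8.21 on the Etv2-positive and 7.90 and 8.21 on the Etv2-negative arrays. Its difference of 0.05 had a 95% interval from -0.35 to 0.45, and it changed sign without array 2 of the Etv2-positive cells (-0.06) or array 1 of the Etv2-negative cells (-0.11).

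Fgf3, Fgf4 and Fgf15 are neighbours on chromosome 7, with no other listed protein-coding gene between them. Fgf4, a streak ligand outside the 10 genes, measured 5.76 and 5.86 on the Etv2-positive arrays and 5.85 and 6.23 on the Etv2-negative arrays, with a difference of -0.23 (SE 0.15, adjusted p = 0.671). Its 4 probe sets did not share a direction, 1 being above 0 and 3 below. The 3 neighbours thus differed by 0.35, -0.23 and 0.05, of which only the difference of Fgf3 was larger than both gaps between arrays.

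**Figure D2:**
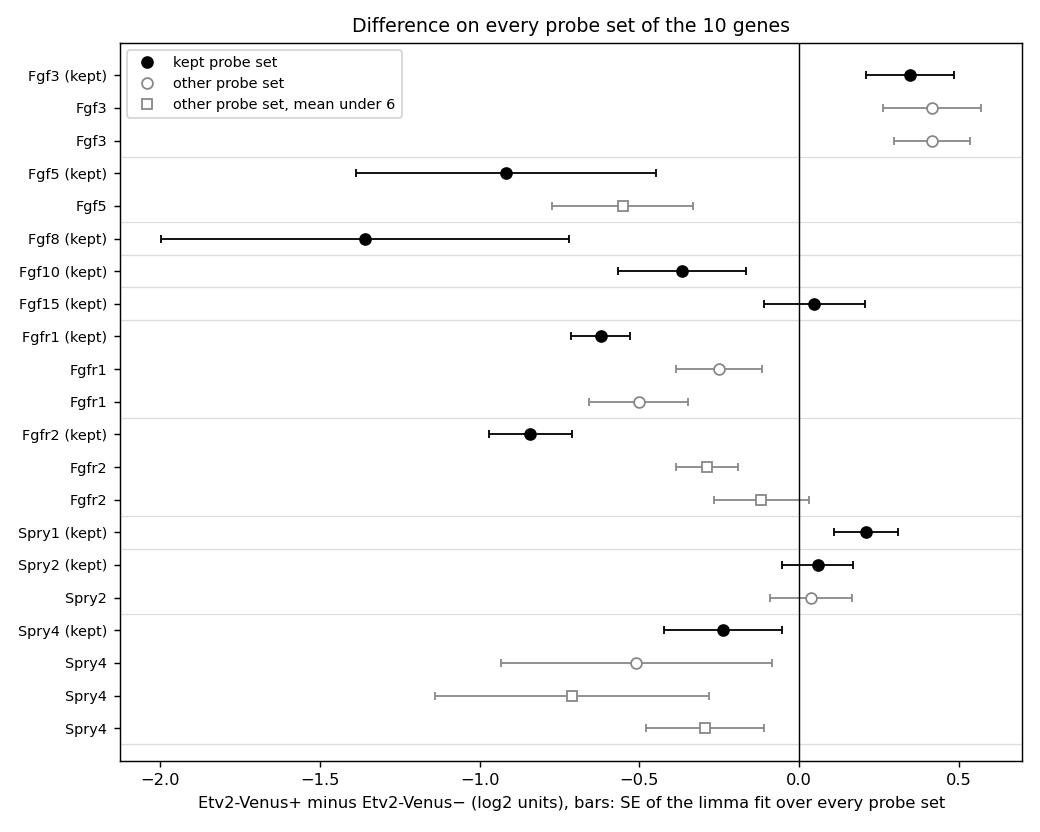
Etv2-positive minus Etv2-negative difference (log2 units) for each of the 21 probe sets of the 10 genes, with bars for the SE of a fit over every probe set. Within each gene the probe sets lie on one side of 0, with Fgf3, Fgf15, Spry1 and Spry2 above it and the other 6 genes below.

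The Sprouty genes encode intracellular inhibitors of receptor tyrosine kinase signalling, and their kept probe sets gave differences between -0.24 and 0.21. Spry1 measured 9.01 and 8.91 on the Etv2-positive arrays, against 8.80 and 8.71 on the Etv2-negative arrays. Its difference of 0.21 (1.16-fold, SE 0.10, adjusted p = 0.512) was larger than the gaps between arrays, 0.10 and 0.09, and the populations did not overlap. Spry2 measured 10.58 and 10.62 on the Etv2-positive and 10.45 and 10.63 on the Etv2-negative arrays. Its difference of 0.06 had a 95% interval from -0.22 to 0.33, and the Etv2-positive arrays lay between the Etv2-negative ones.

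Spry4 measured 6.38 and 6.19 on the Etv2-positive arrays and 6.74 and 6.31 on the Etv2-negative arrays, a difference of -0.24 (SE 0.18, adjusted p = 0.715) with arrays that overlapped. All 4 of its probe sets were below 0, between -0.71 and -0.24, each with overlapping arrays, and 2 of them had means under 6. Array 1 was higher than array 2 for Spry4 in both populations, as for Fgf8 and Fgf5. Without array 1 of the Etv2-negative cells the Spry4 difference was -0.023, and without array 2 of those cells it was -0.45. Without array 2 of the Etv2-positive cells it was -0.14.

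Across the 10 genes the median difference was -0.30, against 0.01 over all 18193 genes. By the test none of the 10 passed an adjusted p of 0.05, and at an unadjusted p under 0.05 limma gave 2 lower, Fgfr1 and Fgfr2, and 0 higher, against 4.64% of all genes lower and 7.07% higher. The count of 2 was larger without array 1 of the Etv2-positive cells and without array 2 of the Etv2-negative cells. The shares of all genes in those fits are not given here. The populations did not overlap in the lower direction for 3 of the 10 genes (17% of all genes) and in the higher direction for 2 (22.4%). The difference was larger than both gaps between arrays for 4 of the 10 genes, Fgf3, Fgfr1, Fgfr2 and Spry1, against 29.9% of all genes, so the 10 genes were near the background by that measure. A difference of at least 2-fold lower was seen for 1 of the 10 genes, Fgf8, and for 0.423% of all genes, and of at least 2-fold higher for 0 of the 10 and 0.599% of all genes.

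**Figure D3:**
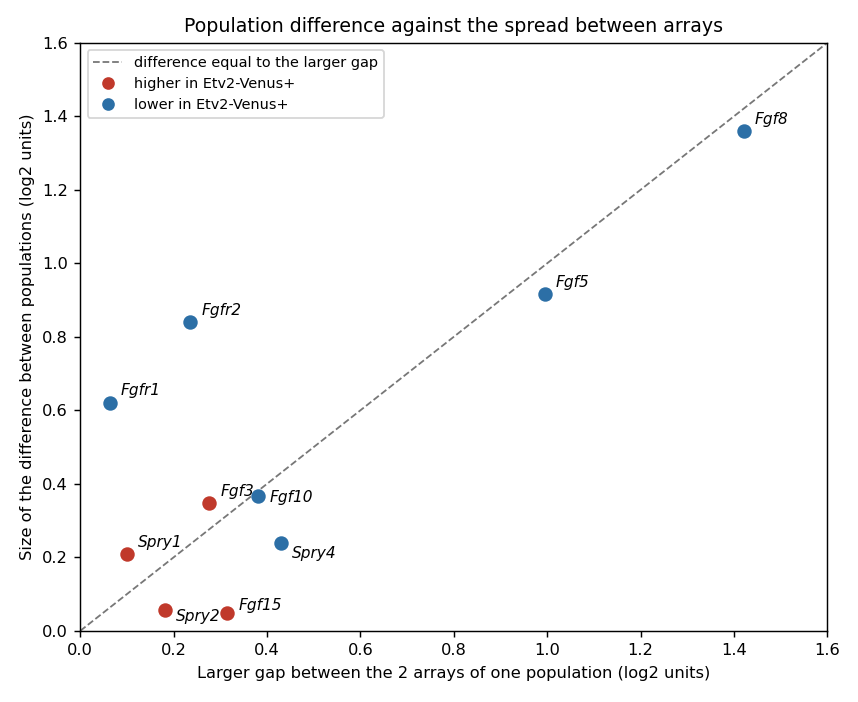
Size of the difference between populations against the larger gap between the 2 arrays of one population, both in log2 units, for each of the 10 genes. Fgfr1, Fgfr2, Fgf3 and Spry1 lie above the dashed line of equality, and Fgf8 and Fgf5 lie just under it at the far right.

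The rest of the pathway was followed in 5 lists of genes outside the 10, with 75 of 83 listed genes measured. Together the 75 genes had a median difference of -0.02, and 0 passed an adjusted p of 0.05. At an unadjusted p under 0.05 in limma 5 of the 75 were higher and 7 lower, against 7.07% and 4.64% of all genes. The counts of each list below are to be read against the same shares. Fewer of them were under 0.05 when any 1 of the arrays was left out. The genes furthest from 0 were Gab1, higher in the Etv2-positive cells, and Sulf1, lower.

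Of the 17 other Fgf genes, 0 were under 0.05 in either direction (median -0.02), and 16 had means under 6 log2 units, a range in which RMA compresses differences. Fgf18 lay at -0.26 (SE 0.13). Fgf11, at -0.33 (SE 0.18), and Fgf12, at 0.22 (SE 0.15), were counted here by name, although with Fgf13 and Fgf14 they encode intracellular FGF homologous factors that are not secreted. Of the 10 other receptors and co-receptors, 1 was higher and 2 lower (median -0.08). Fgfrl1 is a receptor-like protein without a kinase domain. It measured 9.77 and 9.62 on the Etv2-positive arrays and 10.21 and 10.07 on the Etv2-negative arrays (difference -0.44, SE 0.11, adjusted p = 0.224). Flrt3, a membrane protein that binds FGF receptors, lay at -0.39 (SE 0.12, adjusted p = 0.313) and Klb, the co-receptor for FGF15, at 0.40 (SE 0.15), with values under 5 on all 4 arrays and its 2 probe sets on opposite sides of 0. Fgfr3 measured 6.81 and 7.20 on the Etv2-positive and 7.31 and 7.93 on the Etv2-negative arrays, a difference of -0.62 (SE 0.25, adjusted p = 0.459). That difference was not larger than the gap of 0.62 between its Etv2-negative arrays. Fgfr1, Fgfr2 and Fgfr3 each had both Etv2-positive arrays below both Etv2-negative arrays, as did 17% of all genes. Fgfr4 lay at 0.05, with values near 5 on all arrays.

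Heparan sulphate, the sugar chain that FGFs need to bind their receptors, was followed in 20 measured genes, of which 2 were higher and 3 lower (median -0.10). The extracellular sulphatases Sulf1 and Sulf2, which remove sulphate groups from these chains, lay on opposite sides. Sulf1 measured 8.01 and 7.58 on the Etv2-positive arrays, against 8.94 and 8.96 on the Etv2-negative arrays, and was 2.23-fold lower (difference -1.16, SE 0.16, adjusted p = 0.0962), although 1 of its 3 probe sets was above 0. Sulf2 measured 12.14 and 12.20 on the Etv2-positive and 11.71 and 11.82 on the Etv2-negative arrays (difference 0.40, SE 0.10, adjusted p = 0.213). All 3 of its probe sets were above 0. The proteoglycan Gpc3 lay at -0.55 (SE 0.11, adjusted p = 0.153) and the chain-building enzyme Ext1 at -0.33 (SE 0.09, adjusted p = 0.259). These 4 genes were named for the smallest p-values of the list, a choice that favours arrays that do not overlap, and none of the 4 overlapped. Of the 20 genes, 3 did not overlap in the higher and 5 in the lower direction, against 22.4% and 17% of all genes.

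Of the 15 measured genes of the Ras-MAPK relay, 1 was higher and 0 lower (median -0.01). This was Gab1, a docking protein downstream of receptor tyrosine kinases. Gab1 measured 10.72 and 10.70 on the Etv2-positive arrays, against 9.62 and 9.78 on the Etv2-negative arrays. It was 2.01-fold higher, a difference of 1.01 (SE 0.10, adjusted p = 0.067), and all 3 of its probe sets were above 0. The adaptor Shc1 lay at 0.32 (SE 0.13) and the kinase Braf at -0.50 (SE 0.24), with all 9 Braf probe sets below 0, and the adaptor Crk at 0.12 (SE 0.09).

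Of the 13 measured feedback and response genes, 1 was higher and 2 lower (median 0.08). Egr1, an immediate early gene induced by MAPK signalling, measured 11.76 and 11.88 on the Etv2-positive arrays, against 12.46 and 12.51 on the Etv2-negative arrays (difference -0.66, SE 0.10, adjusted p = 0.0985). The Sprouty-related inhibitors Spred3 and Spred1 lay at 0.37 (SE 0.10, adjusted p = 0.249) and -0.31 (SE 0.10, adjusted p = 0.346), and the MAPK phosphatase Dusp4 at 0.30 (SE 0.14, adjusted p = 0.512). Genes widely read as FGF responses, named here after their values were seen, were at -0.31 for the phosphatase Dusp6 (SE 0.18), 0.13 for the ETS factor Etv4 (SE 0.22) and -0.10 for Etv5 (SE 0.14), all with overlapping arrays. The response genes thus did not share a direction.

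**Figure D4:**
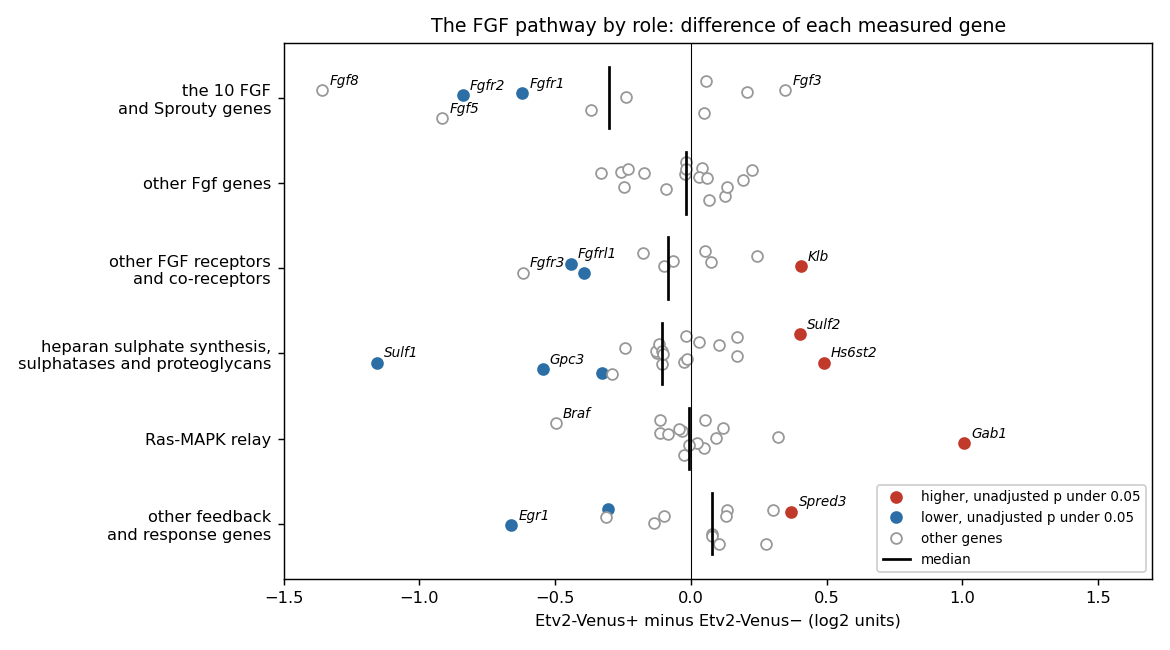
Etv2-positive minus Etv2-negative difference (log2 units) of each measured gene, in rows by role, with filled points for an unadjusted p under 0.05 and a black bar for the median. The 10 genes have a median of -0.30, and the 5 lists of other pathway genes have medians between -0.10 and 0.08, with Sulf1 and Gab1 furthest out.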

How the data were processed

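The authors deposited 1 log2 value per probe set and array for 4 arrays. The submitters' processing notes name RMA and R 2.8.0, and the log2 base is taken from the range of values. RMA normalizes between arrays, so values are relative and compressed near background. No detection calls or scanner files were used. Groups and array numbers came from the sample titles. Of 45101 probe sets, 34945 had 1 symbol in the platform annotation (0 symbols changed through Entrez identifiers), and the one with the highest mean stood for each of 18193 genes.

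The comparison used limma 3.58.1 (lmFit, then eBayes) under R 4.3.3, with group as the only term (2 residual and 2.68 prior degrees of freedom), two-sided, Benjamini-Hochberg adjusted over all genes. The step was tested on simulated data. By rule the text names the 10 genes, the sort genes and the 4 genes of smallest p per pathway list. The rule also covers the 3 profiles most like any of the 10 genes that differed at least 2-fold. Fgfr4, Pou5f1, Tdgf1, Mef2c, Dusp6, Etv4 and Etv5, among others, were named outside this rule. The genes and lists were chosen with earlier results of these data known. The 8 listed pathway genes without a probe set of 1 symbol were not analysed here. Figures used matplotlib 3.10.9. Alternatives are given in the closing section.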

Additional observations from a re-analysis of the deposited data

How the results depend on the processing

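Over 13 alternatives the 10 genes gave 129 differences, 122 of which kept their direction and their side of an adjusted p of 0.05; Fgf8 has no probe set without a type suffix. Several alternatives changed only the fit or the set of genes tested, so their differences equalled those reported and their directions could not change. With 1 array left out, Fgf15 ran between -0.11 (without array 1 of the Etv2-negative cells) and 0.21. It was -0.064 without array 2 of the Etv2-positive cells. Spry2 ran between -0.034 (without array 1 of the Etv2-negative cells) and 0.15. The range was -0.45 to -0.023 for Spry4, -1.41 to -0.42 for Fgf5, -2.07 to -0.65 for Fgf8, -0.56 to -0.18 for Fgf10, 0.21 to 0.48 for Fgf3, 0.16 to 0.26 for Spry1, -0.65 to -0.59 for Fgfr1 and -0.96 to -0.72 for Fgfr2. The count of all genes past an adjusted p of 0.05, 0 as reported, was 112 with a robust fit and a trend of variance on mean (the trend) and 79 among genes with a mean of at least 6, where fewer genes were tested. Of the 10 genes, 0 were higher at an unadjusted p under 0.05 as reported. There was 1 with probe sets of a gene averaged, 1 with the trend and 1 with arrays centred on their medians. The 2 lower genes became 0 with only probe sets without a type suffix. Leaving out 1 array changed the counts of the 10 genes in some fits and lowered the count of 12 pathway genes in each. The shares of all genes in those fits are not given here. The causes were not tested.

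The array numbers are shared between the populations, but the labels do not say that they mark a pairing. Deviations of same-numbered arrays correlated at 0.54 over genes. Array 1 minus array 2 had the same sign in both populations for all 10 genes, 4 being higher on array 1 and 6 on array 2. Over all 18193 genes these counts were 8342 and 3717. With the number as a replicate block, 0 genes passed an adjusted p of 0.05, 2 of the 10 genes were higher and 5 lower at an unadjusted p under 0.05, and so were 21 pathway genes. With the block and the trend together, 977 of the 18193 genes passed, including 4 of the 10. These were Fgf5 (adjusted p = 0.0167), Fgf8 (0.0153), Fgfr1 (0.017) and Fgfr2 (0.0208), and the unadjusted counts were 2, 5 and 21. The shares of all genes at an unadjusted p under 0.05 with the block are not given here. The counts with the block therefore cannot be set against the 7.07% higher and 4.64% lower of the fit without it. Between arrays of the same number, Fgf8 differed by -1.47 and -1.25 and Fgf5 by -0.88 and -0.95. With 2 arrays a population, the spread of each gene in the fit by group alone rests on 2 residual and 2.68 prior degrees of freedom. The block adds a term, so the fits with it leave fewer residual degrees of freedom.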
